A study of Mus musculus with 38 samples.

Results

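The FGF23 by Adriamycin nephropathy interaction is the FGF23 effect in diseased kidneys minus the FGF23 effect in healthy kidneys, and it was estimated here from 16 of the 38 samples of the study. The members are all bulk RNA-Seq libraries of the Adriamycin experiment, chosen by their labels and not by any measured value. Kidneys came from female BALB/c mice in 4 groups of 4, which were healthy with vehicle_24h, healthy with FGF23_24h, adriamycin_nephropathy with vehicle_24h and adriamycin_nephropathy with FGF23_24h. Healthy mice had received saline in place of Adriamycin, and kidneys were collected 24 h after a single intravenous injection of recombinant human FGF23 or of its vehicle, PBS with albumin. RNA was taken from a piece of 1 kidney region, and each library is 1 mouse, called here by the mouse number in the table (Ad1 to Ad4 healthy vehicle, Ad9 to Ad12 healthy FGF23, Ad5 to Ad8 Adriamycin vehicle, Ad13 to Ad16 Adriamycin FGF23). Total counts per library ran from 15665050 to 27583911, and 16020 genes passed the filter on low counts.

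FGF23 is a hormone made by bone cells that acts on the kidney through FGF receptors and the co-receptor Klotho (Kl). In the proximal tubule it lowers phosphate reabsorption through the transporters Slc34a1 and Slc34a3, represses Cyp27b1, which makes active vitamin D, and induces Cyp24a1, which breaks it down. Adriamycin (doxorubicin) injures podocytes, the filtering cells of the glomerulus, and in BALB/c mice leads to heavy loss of protein in the urine. The interaction is given on the log2 scale. A positive value means that the FGF23-to-vehicle ratio was larger in Adriamycin mice, and a value of 0 means equal ratios.

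By edgeR's quasi-likelihood test no gene had an adjusted p below 0.05 for the interaction, that is 0 of 16020 (0%), and the smallest adjusted p was 0.268. DESeq2 called 7 genes on the same libraries, and limma-voom with quality weights called 0. With p values adjusted over 3 contrasts combined (interaction, disease and FGF23), edgeR called 5 genes and DESeq2 33, of which 20 were positive and 13 negative. In that adjustment the p values of disease and FGF23 are ranked with those of the interaction. The threshold then holds for the 3 contrasts together and not for the interaction alone. The smallest adjusted p of the interaction in edgeR was 0.0126 with it. The original methods name DESeq2 and an adjustment over such 3 contrasts combined. Here the disease and FGF23 contrasts were averages over the other factor, which those methods do not state. At an unadjusted p below 0.05, edgeR had 819 genes (5.11%), of which 352 were positive (2.2%) and 467 negative (2.92%). Over all tested genes 7958 interactions were positive and 8062 negative, with a median of -0.00093. Since the number called depended on the tool and the adjustment, the genes named below are described by their values, and the 10 in each direction with the smallest p were chosen by that p. Mice are the replicates throughout, and in bulk RNA fewer cells of a type and less RNA per cell cannot be told apart.

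The smallest p belonged to Dclre1b (ENSMUSG00000027845, chromosome 3, 103800605 to 103809444 in GRCm38), which encodes the Apollo nuclease of telomere maintenance and DNA crosslink repair. Its level was 10.6, 11.1, 10.3 and 12.9 CPM (counts scaled to the same library total) in healthy vehicle mice and 10.2, 10.4, 10.3 and 11.4 CPM in healthy FGF23 mice. In Adriamycin mice it was 11.98, 12.6, 12.7 and 11.8 CPM with vehicle and 17.4, 18.4, 19.5 and 17.1 CPM with FGF23. All 4 Adriamycin FGF23 mice lay above the other 12, and the healthy groups overlapped. The interaction of Dclre1b was 0.65 (standard error, SE, 0.11), at an adjusted p = 0.268 by edgeR and 0.00258 by DESeq2.

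Cebpb (ENSMUSG00000056501, chromosome 2, 167688915 to 167690418) encodes C/EBP-beta, a transcription factor of acute-phase, inflammatory and metabolic genes. It was at 14.98, 9.53, 13.2 and 11.2 CPM in healthy vehicle mice and at 15.6, 11.5, 9.60 and 13.6 CPM in healthy FGF23 mice. With Adriamycin it was at 13.9, 10.7, 13.1 and 14.2 CPM after vehicle and at 30.5, 44.2, 39.9 and 27.4 CPM after FGF23. The group means of the Adriamycin mice were 12.98 ± 1.62 CPM with vehicle and 35.5 ± 7.86 CPM with FGF23 (SD, n = 4 each), and the 3 other groups shared 1 range. The interaction was 1.42 (SE 0.25), from an FGF23 effect of 0.04 in healthy and 1.46 in Adriamycin mice, at an adjusted p = 0.278 by edgeR and 5.44e-04 by DESeq2. With each library left out in turn, the interaction of Cebpb stayed between 1.29 and 1.54.

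**Figure D1:**
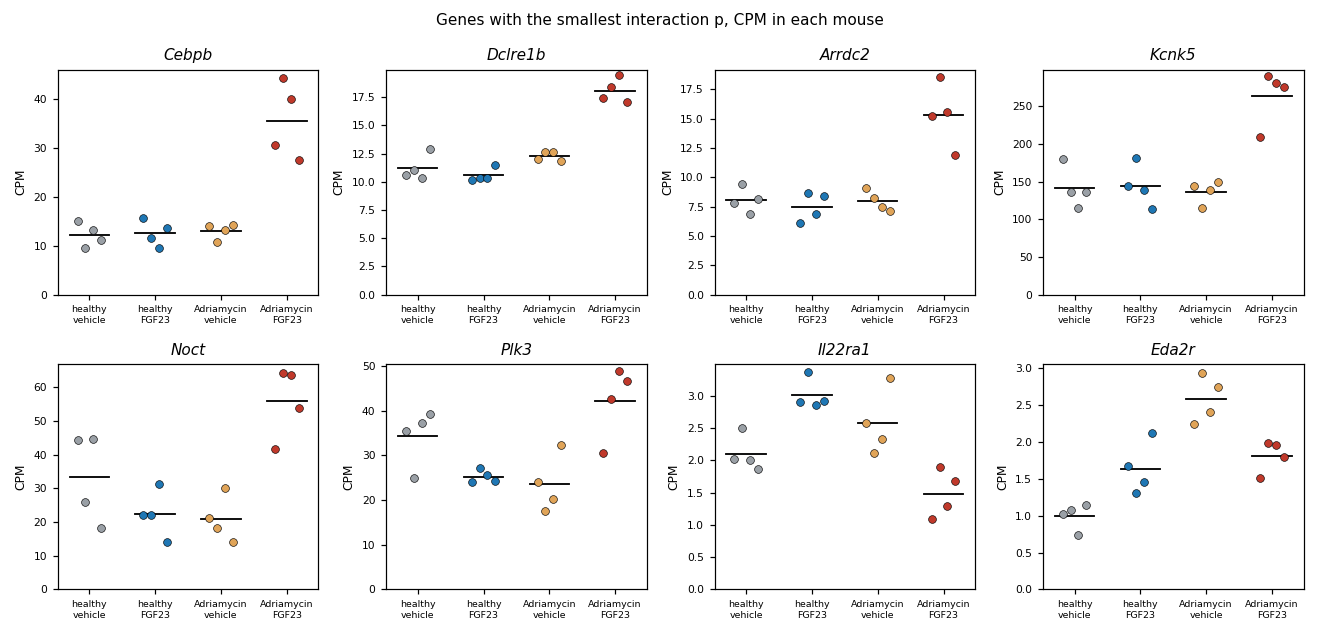
Level in CPM (vertical axis from 0) of 8 genes with small interaction p in each of the 16 mice, by group; points are mice and lines are group means. Cebpb, Dclre1b, Arrdc2 and Kcnk5 had all 4 Adriamycin FGF23 mice above the other 12, whereas Il22ra1 and Eda2r were higher with FGF23 in healthy mice and lower with FGF23 in Adriamycin mice.

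The other 8 genes with the smallest p on the positive side were Arrdc2, Plk3, Noct, Vrk1, Itprip, Kcnk5, Eif4ebp3 and Id4. Arrdc2, an arrestin-domain gene that glucocorticoids induce, was at 6.10 to 9.40 CPM in 12 mice and at 15.2, 18.6, 15.6 and 11.9 CPM in the Adriamycin FGF23 mice, with an interaction of 1.04 (SE 0.20). Kcnk5 encodes a pH-sensitive potassium channel of the proximal tubule. It was at 114 to 182 CPM in 12 mice and at 208.5, 289.5, 280.2 and 275.3 CPM in the Adriamycin FGF23 mice, and its interaction was 0.92 (SE 0.21). Across the 10 positive genes, 6 had the 4 Adriamycin FGF23 mice above the other 12 (Dclre1b, Cebpb, Arrdc2, Vrk1, Kcnk5 and Eif4ebp3), a pattern that 49 of all tested genes showed (0.306%). The contrast that chose these genes also favours this pattern, so nothing is read from the share.

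For Noct and Plk3 the fitted FGF23 effect was negative in the healthy and positive in the Adriamycin arm. Noct (nocturnin), a rhythmically expressed gene of lipid metabolism, was at 44.3, 26.04, 44.5 and 18.2 CPM in healthy vehicle mice and at 22.03, 22.1, 31.4 and 13.99 CPM in healthy FGF23 mice. In Adriamycin mice Noct was at 21.2, 18.1, 30.1 and 14.1 CPM with vehicle and at 41.6, 64.2, 63.5 and 53.7 CPM with FGF23. The Adriamycin groups did not overlap, with FGF23 above vehicle as in 1.65% of all tested genes, and the healthy groups did. The interaction of Noct was 1.99 (SE 0.41, edgeR adjusted p = 0.49), made up of -0.58 in healthy and 1.41 in Adriamycin mice. Plk3, a stress-responsive polo-like kinase, had an interaction of 1.29 (SE 0.25) from -0.44 in healthy and 0.85 in Adriamycin mice, and its groups overlapped in each arm. Id4, an inhibitor of helix-loop-helix transcription factors, had its interaction of 0.65 from the healthy arm. It was at 49.7 to 74.6 CPM in healthy FGF23 mice, below the other 12 mice (as were 31 of all tested genes, 0.194%), and its FGF23 effect in Adriamycin mice was -0.03 (SE 0.11).

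On the negative side the smallest p belonged to Il22ra1, which encodes a subunit of the interleukin-22 receptor of epithelial cells. It was at 2.01, 2.51, 2.01 and 1.86 CPM in healthy vehicle mice and at 2.91, 3.37, 2.86 and 2.92 CPM in healthy FGF23 mice. In Adriamycin mice it was at 2.57, 2.11, 2.32 and 3.28 CPM with vehicle and at 1.09, 1.89, 1.28 and 1.67 CPM with FGF23. FGF23 mice thus lay above vehicle mice in the healthy arm and below them in the Adriamycin arm, without overlap in either. Single arms without overlap were found in 1.61% of tested genes with FGF23 above and 1.53% with FGF23 below in healthy mice, and in 1.77% with FGF23 below in Adriamycin mice. The interaction was -1.31 (SE 0.25), at an adjusted p = 0.339 by edgeR and 0.0286 by DESeq2.

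Eda2r, a receptor gene that p53 induces, had the same arrangement at 0.735 to 1.14 CPM and 1.31 to 2.12 CPM in healthy vehicle and FGF23 mice. In Adriamycin mice Eda2r was at 2.25 to 2.94 CPM with vehicle, above all other mice (as were 26 of all tested genes, 0.162%), and at 1.505 to 1.98 CPM with FGF23. Its interaction was -1.22 (SE 0.26, edgeR adjusted p = 0.515). Of all tested genes 3 had FGF23 mice above vehicle mice in the healthy arm and below them in the Adriamycin arm without overlap (0.0187%), which were Il22ra1, Eda2r and Pex26, the last named after its values were seen. The opposite arrangement was found for 1 gene (0.00624%), Vrk1, a nuclear kinase of the cell cycle. The 8 other genes on the negative side were Cmpk2, Cdc14b, Slc29a3, B230354K17Rik, Dtwd2, Gm16010, 2310007B03Rik and Gnpda1, with interactions from -0.69 to -0.30. For Cdc14b, Slc29a3, 2310007B03Rik and Gnpda1 the healthy groups did not overlap and the Adriamycin groups did.

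The genes through which FGF23 acts on phosphate and vitamin D were examined whatever their p. Cyp24a1 (chromosome 2, 170482708 to 170497145), the vitamin D 24-hydroxylase, was at 35.2, 15.8, 42.1 and 61.1 CPM in healthy vehicle mice and at 25.6, 179, 29.99 and 59.4 CPM in healthy FGF23 mice. With Adriamycin it was at 28.7, 39.0, 161 and 46.4 CPM after vehicle and at 18.1, 35.7, 15.1 and 25.3 CPM after FGF23. Single mice, Ad10 and Ad7, held the highest values of their groups, and the groups overlapped in each arm. The interaction of -2.49 (SE 0.89, edgeR adjusted p = 0.941) moved to -1.54 without Ad10.

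Cyp27b1, the 1-alpha-hydroxylase that activates vitamin D, was at 14.2, 17.5, 21.02 and 13.9 CPM in healthy vehicle mice and at 9.54, 5.11, 14.1 and 2.73 CPM in healthy FGF23 mice. It was at 5.99, 3.86, 5.51 and 4.65 CPM in Adriamycin vehicle mice and at 3.27, 6.11, 6.14 and 6.49 CPM in Adriamycin FGF23 mice. All 8 Adriamycin mice lay below the healthy vehicle mice, whichever injection they had received. The FGF23 effect was -1.09 (SE 0.34) in healthy and 0.13 (SE 0.37) in Adriamycin mice, and the interaction was 1.23 (SE 0.50, edgeR adjusted p = 0.967).

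The receptors and transporters had interactions close to 0 with small errors. The interaction was -0.06 for Kl (SE 0.16), 0.08 for Fgfr1 (0.09), 0.13 for Slc34a1 (0.15) and -0.07 for Slc34a3 (0.14), with an adjusted p of 1.00 in edgeR for each. Kl was at 607 to 839 CPM over the 16 mice. Of the 15 genes of vitamin D and phosphate handling 7 interactions were positive and 8 negative, with a median of -0.05, and Cyp24a1 and Cyp27b1 alone had an unadjusted p below 0.05. Of 22 tested genes for FGF receptors, Klotho and MAPK feedback 0 had such a p, against 5.11% of all genes.

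Egr1, an immediate-early gene of MAPK signalling, could hardly be resolved, with an interaction of 0.84 and a SE of 1.35. It was at 9.30, 26.7, 63.8 and 120.1 CPM in Ad1 to Ad4 and at 6.44, 34.1, 47.9 and 78.6 CPM in Ad9 to Ad12. In Adriamycin mice it was at 6.50, 26.5, 59.7 and 149.8 CPM in Ad5 to Ad8 and at 7.68, 37.3, 79.3 and 206 CPM in Ad13 to Ad16. Within every group the mouse with the lowest number had the lowest value and the mouse with the highest number had the highest value, so that the spread of Egr1 followed the mouse numbers and not the injections. Without Ad16 its interaction was -0.14.

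**Figure D2:**
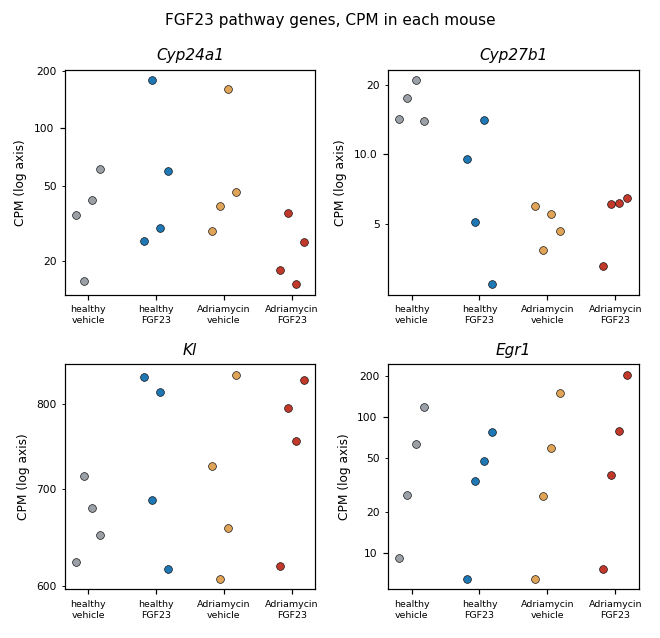
Level in CPM on a log axis of Cyp24a1, Cyp27b1, Kl and Egr1 in each of the 16 mice, by group, with mice in order of their numbers from left to right. Cyp24a1 stood highest in Ad10 and Ad7 (179 and 161 CPM), Cyp27b1 was lower in all Adriamycin mice than in healthy vehicle mice, and Egr1 had its lowest value in the first mouse and its highest in the last mouse of each group.

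Glucocorticoid-induced genes and clock genes held several of the small p values. All gene lists were chosen with earlier results of these data known. Their counts beside the share of all genes are thus a description and no test. Of 20 glucocorticoid-induced genes 14 had a positive interaction and 7 of them an unadjusted p below 0.05, against 2.2% of all genes in that direction, while 0 did on the negative side, against 2.92%. The list median was 0.19, with -0.08 in the healthy arm and 0.42 in the Adriamycin arm. No member passed the adjusted test in edgeR, whereas DESeq2 called Arrdc2 (adjusted p = 0.00460) and, adjusted over 3 contrasts combined, also Sgk1 and Per1. The members with the smallest p were Arrdc2, Per1, Sgk1 and Errfi1.

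Sgk1, the serum- and glucocorticoid-induced kinase that activates the distal sodium channel, was at 132 to 201 CPM in both vehicle groups and at 113 to 163 CPM in healthy FGF23 mice. In Adriamycin FGF23 mice it was at 301, 377, 451 and 166 CPM, so that 3 of the 4 mice lay above all others and Ad16 lay within their range. Its interaction of 1.22 (SE 0.32, edgeR adjusted p = 0.668) was 1.44 without Ad16. Nfkbia, the inhibitor of NF-kappaB, was at 22.9 to 31.04 CPM in healthy FGF23 mice, below the other 12 mice. It was at 59.4, 67.5, 65.8 and 42.7 CPM in Adriamycin FGF23 mice, with Ad16 again lowest, and its interaction was 0.81 (SE 0.19).

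Of 19 core clock genes 3 had an unadjusted p below 0.05 on each side, against 2.2% of all genes on the positive and 2.92% on the negative side, and the list median was 0.08. Per1, a repressor of the clock that glucocorticoids also induce, was at 119.7 to 149.9 CPM in 12 mice and at 166, 169.5, 197.7 and 199 CPM in Adriamycin FGF23 mice, with an interaction of 0.48 (SE 0.11). Cry1, its partner repressor, was at 17.95, 18.8, 18.1 and 11.5 CPM in these mice and at 12.9 to 15.1 CPM in Adriamycin vehicle mice. In healthy mice Cry1 was at 18.3 to 20.3 CPM with vehicle and at 14.5 to 15.8 CPM with FGF23, without overlap. The interaction of Cry1 was 0.64 (SE 0.16, edgeR adjusted p = 0.589), and without Ad16 it was 0.77 with an adjusted p of 0.00538, the only gene called in that fit.

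Nr1d1, a repressor of the positive limb of the clock, was at 141.9, 135.5, 153.9 and 134.5 CPM in Adriamycin vehicle mice, above all other mice. It was at 78.6, 90.1, 89.3 and 131 CPM in Adriamycin FGF23 mice and at 74.4 to 116 CPM in the healthy groups. Ad16 was the Adriamycin FGF23 mouse closest to the vehicle mice. The interaction of Nr1d1 was -0.72 (SE 0.19).

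**Figure D3:**
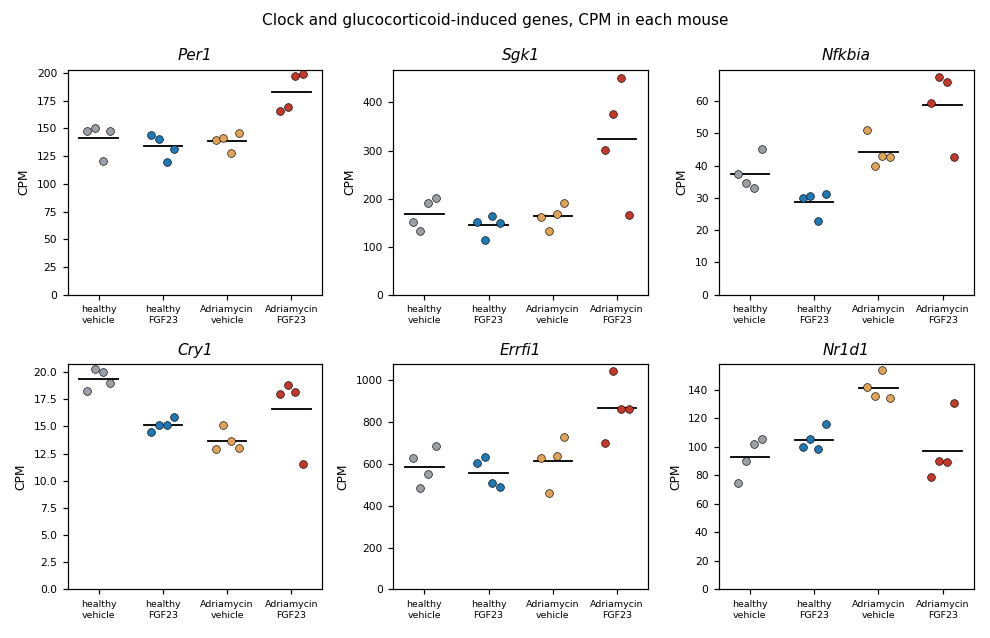
Level in CPM (vertical axis from 0) of Per1, Sgk1, Nfkbia, Cry1, Errfi1 and Nr1d1 in each of the 16 mice, by group; points are mice in order of their numbers and lines are group means. In Adriamycin FGF23 mice the last point, Ad16, lay apart from the other 3 for Sgk1 (166 CPM), Cry1 (11.5 CPM) and Nr1d1 (131 CPM), and not for Per1.

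Interferon-induced genes lay on the negative side of the interaction almost without exception, by small amounts. Of 34 type I interferon genes, which cells induce through the STAT and IRF factors against viruses, 34 were negative with a median of -0.52, and of 40 interferon-gamma-type genes 38 were negative with a median of -0.44, beside a median of -0.00093 over all genes. An unadjusted p below 0.05 on the negative side was found for 7 of the 34 and 3 of the 40 (2.92% of all genes). No member passed the adjusted test in edgeR, and DESeq2 adjusted over 3 contrasts combined called Cmpk2. The median FGF23 effect of the type I genes was 0.06 in healthy and -0.41 in Adriamycin mice, and that of the interferon-gamma-type genes was 0.05 and -0.39. Genes of such a list share their regulators and are not independent of each other, so that the number on 1 side is a description.

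Cmpk2 (chromosome 12, 26469204 to 26479837), a mitochondrial nucleotide kinase that interferon induces, had the smallest p of these genes. It was at 11.5, 11.7, 12.1 and 13.97 CPM in healthy vehicle mice and at 15.1, 13.7, 13.3 and 15.8 CPM in healthy FGF23 mice. In Adriamycin mice it was at 14.3, 14.3, 16.7 and 13.5 CPM with vehicle and at 9.34, 10.6, 12.2 and 12.5 CPM with FGF23. The Adriamycin groups did not overlap, and the interaction was -0.63 (SE 0.14, edgeR adjusted p = 0.528). Ifi27l2a had an interaction of -1.68 (SE 0.64), with 22.9 and 19.5 CPM in Ad9 and Ad10 against 2.75 to 8.64 CPM in the other 14 mice, and without these 2 mice it was -0.37 (0.48). The interaction was -0.48 (0.19) for Bst2, the virus-tethering protein tetherin, and -0.55 (0.24) for Oasl1, which was at -0.36 without Ad5. Among the interferon-gamma-type genes it was -0.42 (0.15) for the GTPase Gbp9, -0.49 (0.19) for the immunoproteasome subunit Psmb10 and -0.85 (0.34) for the chemokine Cxcl10. Near-identical copies in the Gbp, Oas and Ifit families can share reads, so single members are less certain than the families.

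The size of the interferon medians depended on single Adriamycin vehicle mice. The summed level of the interferon-gamma-type genes was 2021 CPM in Ad5, 1433 in Ad6, 1142 in Ad7 and 1043 in Ad8, where the other 12 mice had 959.7 to 1343 CPM. Without Ad5 the median interaction of this list was -0.14, with 32 of 40 members negative, and that of the type I genes was -0.37, with 34 of 34 negative. An unadjusted p below 0.05 on the negative side then remained for 1 of 40 and 2 of 34 members. In that fit 766 of 16210 genes had such a p in either direction. The share on the negative side alone was not computed, so these member counts have no like share beside them. Without Ad8, the lowest mouse of that group, the medians were -0.55 and -0.61, and 16 of 40 and 22 of 34 members had an unadjusted p below 0.05 on the negative side, as had 2.53% of all genes in that fit. Without Ad16 such a p was found for 14 of 40 and 13 of 34, and for 3.24% of all genes.

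Promoter sequences were looked at because these genes lay on the same side and because interferon acts through a known DNA element. Among tested genes with a RefSeq promoter window across the start site (GRCm38.p6), the interferon-stimulated response element, searched on both strands as GAAA, any 2 bases and GAAA, stood in at least 1 window of 14 of 23 type I genes (60.9%) and 12 of 26 interferon-gamma-type genes (46.2%). It stood in 436 of 11625 tested genes (3.75%) and in 3.44% of all 32851 windows. The elements of Bst2 and Cxcl10 are shown in 60 bases of their promoters with the matching bases in capitals, both read on the minus strand, 5′ to 3′, at chr8:71537565-71537624 and chr5:92349068-92349127.
Bst2: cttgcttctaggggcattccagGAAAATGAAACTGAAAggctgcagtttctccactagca
Cxcl10: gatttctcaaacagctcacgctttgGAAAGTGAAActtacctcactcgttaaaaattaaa
In Bst2, 2 overlapping matches began 130 bases before the start site, and in Cxcl10 the match began 213 bases before it. For the clock genes the E-box CACGTG, which reads alike on both strands and binds the clock activators, stood in 5 of 16 clock genes with a window (31.2%), 5 of 14 glucocorticoid-induced genes (35.7%) and 11.4% of tested genes. Those of Per1 (plus strand, chr11:69098756-69098815) and Cry1 (minus strand, chr10:85185082-85185141) lay 166 and 60 bases before the start site.
Per1: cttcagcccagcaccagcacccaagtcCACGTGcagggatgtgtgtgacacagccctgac
Cry1: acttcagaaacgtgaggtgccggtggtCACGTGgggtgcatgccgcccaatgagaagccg
The cyclic AMP response element TGACGTCA and the pattern TTGCNNCAA, searched in the same way, stood in 0 of the 23 type I genes and in 3.34% and 1.9% of tested genes. The lists were written from known targets, and lists and motifs were chosen with earlier results of these data known. These matches describe the sequences only.

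**Figure D4:**
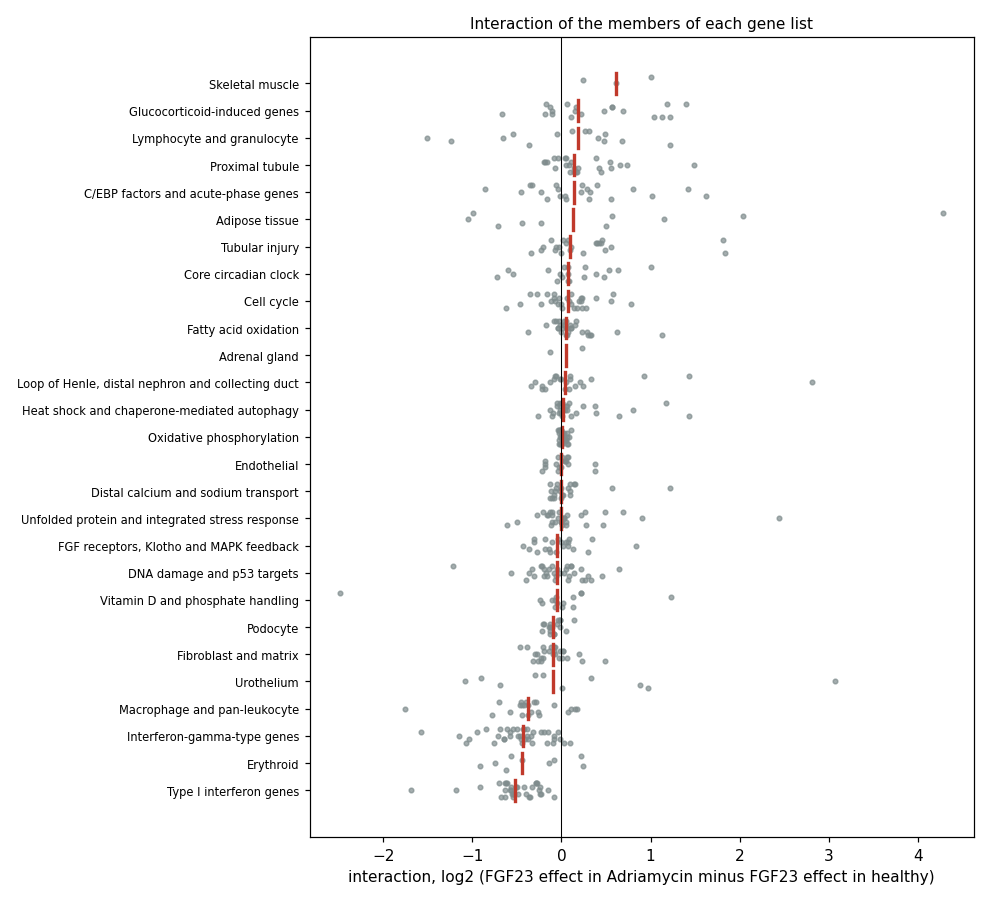
Interaction on the log2 scale (horizontal axis, FGF23 effect in Adriamycin minus FGF23 effect in healthy mice) of every tested member of 27 gene lists, with points for genes and red lines for list medians, ordered by median. The type I interferon genes (median -0.52) lay wholly left of 0, the glucocorticoid-induced genes (median 0.19) reached to 1.40, and the oxidative phosphorylation genes lay close together around 0.00.

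Immune, injury and metabolic genes were counted in the same way, beside 2.2% of all genes with an unadjusted p below 0.05 on the positive side and 2.92% on the negative side. Of 22 macrophage and pan-leukocyte genes 18 had a negative interaction, the median was -0.38, and 3 had such a p, all negative (2.92% of all genes). These were Cx3cr1, the fractalkine receptor, with -0.78 (SE 0.22), Ly86 with -0.70 (0.26) and the complement gene C1qb with -0.45 (0.21). C1qb was at -0.27 without Ad9. Without Ad9 and Ad10 the list median was -0.22, and 1 member, Cx3cr1 with -0.81 (0.25), had such a p, as had 4.15% of all genes in that direction. Cx3cr1 was at 7.33 to 10.5 CPM in Adriamycin vehicle mice and at 5.24, 4.88, 5.09 and 7.01 CPM in Adriamycin FGF23 mice, without overlap. Among lymphocyte and granulocyte genes, 14 of 26 could be tested, and the neutrophil genes Csf3r (-1.24) and S100a9 (-1.51) lay opposite to the B-cell gene Cd79b (1.22), all at 2.15 CPM or less. Without Ad9 and Ad10, S100a9 was at -0.20 (SE 0.58), Csf3r at -0.84 (0.43) and Cd79b at 0.98 (0.61).

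Of 22 tested C/EBP and acute-phase genes 3 had such a p, all positive (2.2% of all genes). Beside Cebpb and Nfkbia this was the neutrophil chemokine Cxcl1, with 1.62 (SE 0.64). The list median was 0.14. Of 23 tubular injury genes 1 had such a p, the chaperone Clu with 0.38 (SE 0.14), and the list median was 0.10. Of 18 podocyte markers 16 were negative, with a median of -0.10, and 0 had such a p. The number negative was 11 without Ad8 (median -0.04) and 10 without Ad9 and Ad10 (median -0.03, 1 with such a p). It stayed at 16 without Ad5 or Ad16. The summed level of the podocyte markers ran from 1900 to 2209 CPM over the 16 mice, and no member was at 0 in all 16.

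DNA damage genes split. Of 34 members 15 were positive and 19 negative, with a median of -0.05. An unadjusted p below 0.05 was found for 3 members on each side (2.2% and 2.92% of all genes). Among the 4 with the smallest p, Dclre1b was positive. The p53 targets Eda2r and Zmat3 (-0.36, SE 0.11) and the damage kinase gene Atm (-0.33, 0.11) were negative. The other positive members with such a p were not named. In the unfolded protein and integrated stress response list 4 of 31 members were positive with such a p (2.2% of all genes) and 1 was negative (2.92%). Herpud1, which serves the degradation of misfolded proteins, was at 401.5 to 542 CPM in 12 mice and at 612, 747.5, 717.5 and 601 CPM in Adriamycin FGF23 mice, with an interaction of 0.47 (SE 0.13). Asns, the asparagine synthetase that ATF4 induces, had -0.61 (0.21), and Ddit4 had 0.69 (0.29). Of 30 heat shock and autophagy genes Dnajb4 had 0.24 (0.11) and Dnajb1 -0.26 (0.12), the latter at -0.17 without Ad11.

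Genes of tubular function had medians near 0. Of 30 oxidative phosphorylation genes 18 were positive and 12 negative, from -0.04 to 0.11, and 0 had an unadjusted p below 0.05. Of 30 fatty acid oxidation genes 21 were positive, and Acaa1b (0.63, SE 0.27, and 1.08 without Ad9 and Ad10) and Eci2 (0.32, 0.14) had such a p. Without Ad9 and Ad10, 28 of the 30 were positive with a median of 0.24, and 6 positive and 1 negative had such a p. In that fit 1337 of 16436 genes had such a p in either direction. Of 25 proximal tubule markers 19 were positive with a median of 0.14, and Pck1 and G6pc, enzymes of gluconeogenesis, had 0.74 (0.22) and 0.55 (0.24). Without Ad9 and Ad10, 20 of the 25 were positive with a median of 0.18, and 8 of them had such a p, against 3 in the fit of all mice. Pck1 was at 4987 to 6375 CPM in healthy vehicle mice and at 3278 to 4525 CPM in healthy FGF23 mice, without overlap, and the Adriamycin groups overlapped. In the calcium and sodium transport list, Trpv6, the apical calcium channel, had 0.57 (0.27) beside Sgk1, and 0.37 without Ad9 and Ad10. The water channel Aqp4 had 0.92 (0.41) and was lower with FGF23 in the healthy arm alone, without overlap. Ccnd1 was the only 1 of 30 cell cycle genes with such a p, at -0.46 (0.14), and 17 of the 30 were positive. Without Ad9 and Ad10, 26 of the 30 were positive with a median of 0.23, and 2 positive and 1 negative had such a p. The median of fibroblast and matrix genes was -0.10 and turned to 0.10 without Ad9 and to 0.29 without Ad9 and Ad10. The medians of endothelial genes (0.00) and of markers of the loop of Henle, distal nephron and collecting duct (0.04) also turned with single libraries left out.

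Other tissue in the sampled piece varied between groups. The summed level of 12 adipose genes was 449.9 to 971 CPM in healthy FGF23 mice, with Ad9 and Ad10 highest, 372 to 678 CPM in healthy vehicle mice and 341 to 428 CPM in the Adriamycin groups. By the median of the 10 tested adipose genes, the FGF23 effect was 2.52 in healthy and 2.63 in Adriamycin mice. Their median interaction was 0.14. It was -1.51 without Ad16, with 10 of 10 negative, and 3.34 without Ad9 and Ad10, with 8 of 10 positive. The sum thus did not show that Ad16 also weighed on these genes. The summed level of 11 erythroid genes was 345 to 536 CPM in Adriamycin vehicle mice, above the 156 to 318 CPM of the other 12. Pparg (-0.71, SE 0.33) and the globin gene Hbb-bt (-0.92, 0.40) were the members with an unadjusted p below 0.05, and Pparg was at -0.43 without Ad9 and Ad10. The part of erythroid RNA in the interaction was not tested. Without Ad9 and Ad10 edgeR called 0 genes and had 1337 at an unadjusted p below 0.05, and the medians of the type I and interferon-gamma-type genes were -0.56 and -0.37. The adrenal genes Cyp11b1, Cyp11b2 and Nr5a1 were at 0 in all 16 mice. Akr1b3, the osmotically induced aldose reductase of the medulla, was at 279 CPM in Ad13 and at 14.7 to 58.3 CPM in the other 15 mice, and its interaction of 2.81 was 0.51 without Ad13.

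The same interaction was set against that of the anti-GBM experiment, the most similar comparison of the study, in 1 fit of 30 libraries. There, 14 male C57BL/6JRj mice, healthy or with an antibody-mediated glomerulonephritis, had FGF23 or vehicle for 6 days, with 3 mice in each FGF23 group and 4 in each vehicle group. Strain, sex, disease agent and length of treatment differ with the experiment and cannot be told apart. The difference, Adriamycin interaction minus anti-GBM interaction, was called by edgeR's test, at an adjusted p below 0.05, for 8 of 16954 genes (0.0472%), 7 negative and 1 positive, and DESeq2 called 73. At an unadjusted p below 0.05 there were 1957 genes (11.5%).

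The positive gene was Cebpb, with a difference of 2.41 (SE 0.44, edgeR adjusted p = 0.0251). Its interaction was 1.41 in the Adriamycin experiment and -0.998 (SE 0.32) in the anti-GBM experiment. Anti-GBM vehicle mice had Cebpb at 61.4, 68.02, 54.3 and 59.4 CPM and anti-GBM FGF23 mice at 30.3, 23.4 and 58.9 CPM, where the 7 healthy mice of that experiment had 10.4 to 16.4 CPM. With vehicle, Cebpb thus stood above the healthy mice in anti-GBM disease and within the range of the healthy mice of its own experiment in Adriamycin disease. With 1 library left out, Cebpb was called in 16 of 30 fits, Gbp4 in 20, Irf1 in 18, Irgm1 in 10, Creb1 in 9, and Gbp9, Gm8995 and Cmpk2 in all 30.

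The 7 negative genes were Gm8995, Gbp9, Cmpk2, Gbp4, Irf1, Irgm1 and Creb1. Gm8995 is annotated as a transcribed pseudogene and was not assigned to a class here, and Creb1 encodes the cyclic AMP response factor. The other negative genes are interferon-induced. Irf1, a transcription factor that interferon-gamma induces, was at 22.7, 24.7, 29.9 and 29.4 CPM in anti-GBM vehicle mice and at 68.9, 71.8 and 49.8 CPM in anti-GBM FGF23 mice. In the same scaling it was at 19.6 to 33.4 CPM in Adriamycin vehicle mice and at 16.3 to 26.1 CPM in Adriamycin FGF23 mice. The difference of Irf1 was -1.75 (SE 0.32, edgeR adjusted p = 0.0251), and that of the GTPase Gbp4, at -2.70 (0.48), was the largest of the 8. The annotated span of Gbp4 (chromosome 5, 105115767 to 105139586) lies mostly within that of Gbp9 (105077630 to 105139539) on the same strand. Gbp4 and Gbp9 may therefore not be independent of each other. Over the lists, 39 of 40 interferon-gamma-type genes and 34 of 34 type I genes had a negative difference, with medians of -1.64 and -1.03, beside 0.01 over all genes. The median interaction of these lists in the anti-GBM experiment was 1.28 and 0.58. Of 20 glucocorticoid-induced genes 9 had an unadjusted p below 0.05 on the positive side, against 5.27% of all genes, and the median difference was 0.90.

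**Figure D5:**
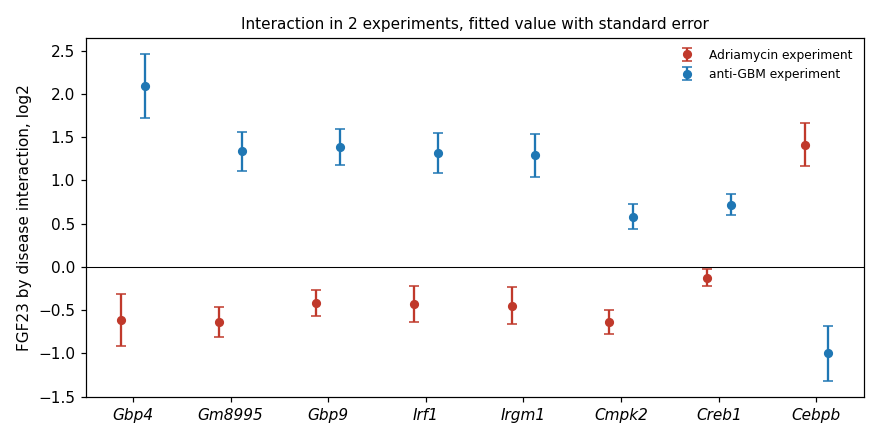
FGF23 by disease interaction on the log2 scale (vertical axis) for the 8 genes whose interaction differed between the experiments, in the fit of 30 libraries; bars are SE, for the Adriamycin points from the fit of 16 libraries. The 7 genes on the left were positive in the anti-GBM experiment and below 0 in the Adriamycin experiment, and Cebpb had 1.41 in Adriamycin and -0.998 in anti-GBM disease.

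The number of such genes depended on which mice were in the fit. It was 155 without NTS7, 62 without NTS16, 24 without Ad8, 20 without Ad16, 17 without NTS6 and 13 without Ad11. It was 5 without Ad10 or NTS2, 4 without Ad1, NTS3, NTS8, NTS9, NTS10, NTS11 or NTS13, and 3 without Ad3, Ad6, Ad14, Ad15, NTS4 or NTS14. The count column called NTS14 here bears the mouse name NTS4, like a healthy vehicle column, and was named and grouped by the label NTS14 in the table of the original study.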

How the data were processed

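Per the labels and the study's methods, the authors made stranded libraries of mRNA, sequenced them in paired ends, aligned the reads with STAR 2.7.9a to GRCm38 and counted them on Ensembl genes with featureCounts 1.5.1. The deposited values are raw counts for 55487 genes in 38 columns, with no normalization or filter, and 8 columns of kidney slices were not used. The labels name 4 groups of 4 mice. Columns carry mouse numbers and not the replicate numbers of the labels, so each was tied to its group by the study's own table of this experiment, which heads columns of these names with their conditions. That table also gives the mouse name NTS14 to an anti-GBM FGF23 column that is headed NTS4 like a healthy vehicle column. Replicates differed by more than counting noise (smallest chi-square per degree of freedom 5.98).

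Counts were scaled by TMM (factors 0.964 to 1.03), filtered with filterByExpr (minimum count 10) and tested with edgeR 4.0.16 in R 4.3.3, two-sided, in 1 quasi-likelihood fit of 4 groups (common dispersion 0.0132) with Benjamini-Hochberg adjustment over all genes. Standard errors were derived, as the absolute fitted log2 value divided by the square root of its quasi-likelihood F statistic. The difference from the anti-GBM experiment used 1 fit of 8 groups. The script was tested on simulated counts. Gene symbols matched 55141 identifiers, and coordinates are those of GENCODE M21. Genes were named if they were among the 10 smallest p in a direction, among up to 4 members of a list with an unadjusted p below 0.05, belonged to FGF23 signalling, or passed the comparison with the anti-GBM experiment, and 1 gene that the rule names is not reported here. The members, gene lists and motifs were chosen with earlier results of these data known. Alternatives were RLE scaling, other count filters, DESeq2 1.42.0 (the study's tool), limma-voom (limma 3.58.1), a robust fit, other thresholds, adjustment over 3 contrasts combined, and each library left out.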

Additional observations from a re-analysis of the deposited data

Results flagged for a closer look

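In 17 of 288 groups of 4 mice (the groups of each named gene and of the adipose, erythroid, macrophage and interferon sums), 1 mouse stood far from the other 3, and chance alone gives such a gap in about 1 of 20 groups. In Ad16 of the Adriamycin FGF23 mice these were the low Cry1 (11.51 CPM) and the high Cx3cr1 (7.008 CPM), Ly86 (2.315 CPM) and Gm16010 (77.8 CPM). In Ad13 of the same group they were the high Akr1b3 (278.9 CPM) and the low Cyp27b1 (3.269 CPM) and Slc34a3 (85.51 CPM), and in Ad14 the high Zmat3 (29.99 CPM). In Adriamycin vehicle mice they were the high Cyp24a1 of Ad7 (161.2 CPM), the low Vrk1 of Ad8 (8.586 CPM) and the high 2310007B03Rik of Ad6 (8.585 CPM). In healthy FGF23 mice they were Dclre1b (11.45 CPM) and Trpv6 (2.732 CPM), both high in Ad12, the high Il22ra1 of Ad10 (3.368 CPM) and the low Nfkbia of Ad11 (22.87 CPM). In healthy vehicle mice they were the low Per1 of Ad3 (120.8 CPM) and the low Clu of Ad4 (181.6 CPM).

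The interaction differed between the Adriamycin and the anti-GBM experiment by edgeR's test of the difference for Gm8995 (-1.97), Gbp9 (-1.80), Cmpk2 (-1.21), Gbp4 (-2.70), Irf1 (-1.75), Irgm1 (-1.74), Creb1 (-0.84) and Cebpb (2.41), on the log2 scale. The adjusted p ran from 0.00812 to 0.0492.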

How the results depend on the processing

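The 0 genes called for the interaction stayed 0 under RLE scaling, at least 10 counts in every library, a robust fit, limma-voom and an adjusted p of 0.1. A fold limit on top of the adjusted p can only remove genes, so its 0 is no check. The number of genes called was 1 (Cebpb) with no filter on low counts, 7 with DESeq2 and 5 with adjustment over 3 contrasts combined. It was 33 with DESeq2 and that adjustment, both of which the study's methods name. With each library left out the number ran from 0 to 1, the 1 being Cry1 without Ad16. Under DESeq2, Cebpb (1.41) and Dclre1b (0.65) were called, as were Arrdc2, Plk3, Noct, Kcnk5 and Il22ra1, with interactions close to those of edgeR. Among named genes the direction turned for 3, which lay near 0 or had a large error. With 1 library left out, Kl ran from -0.14 to 0.032, Slc34a3 from -0.13 to 0.015 and Egr1 from -0.14 to 1.80, and without Ad9 and Ad10 Slc34a3 was at 0.028. List medians moved beyond the spread between mice for the adipose, urothelium, skeletal muscle, erythroid, lymphocyte and stress response lists when mice were left out. With DESeq2, 73 genes differed between the experiments, and with each library left out the number ran from 3 to 155. The columns do not carry the replicate numbers of the labels. A replicate block by the place of the mouse number in its group, added after the data were seen like the fit without Ad9 and Ad10, called 0 genes (smallest adjusted p 0.122, Noct), and 3 of 16 mice correlated best with a mouse of the same place. Depth limits genes of low count such as Il22ra1, Eda2r and Cxcl1.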

Other observations

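Immediate-early genes followed the mouse numbers across all 4 groups. In the fit with the place of the mouse number as a block, added after the data were seen, 8 of 16020 genes passed an adjusted p of 0.05 for the block in edgeR, which were Egr1, Fos, Junb, Btg2, Jun, Nr4a1, Zfp36 and Ier2. All are immediate-early genes, which growth factors and stress induce within minutes. Fos was at 0.806, 1.12, 1.05 and 1.45 CPM in Ad1, Ad5, Ad9 and Ad13, the mice with the lowest numbers, and at 14.3, 32.6, 16.96 and 51.1 CPM in Ad4, Ad8, Ad12 and Ad16, those with the highest. Junb was at 14.2 to 16.8 CPM in the former and at 41.6 to 91.1 CPM in the latter, without overlap. The labels do not say what the numbers stand for, and their part in the interaction was examined only through the block.

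Kap, the kidney androgen-regulated protein of the proximal tubule, was at 1551 to 4614 CPM in the 8 healthy mice. It was at 73.2, 289.7, 84.9 and 288 CPM in Adriamycin vehicle mice and at 546, 643, 587 and 283 CPM in Adriamycin FGF23 mice. Its interaction was 1.49 (SE 0.60, edgeR adjusted p = 0.967), with an FGF23 effect of 0.00 in healthy mice.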
